A study of Rattus norvegicus with 14 samples.

Results

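The genes described here encode the machinery that carries new proteins into the endoplasmic reticulum (ER) and attaches N-linked sugar chains to them, measured in colonocytes, the cells of the colonic epithelium, of rats. Members were found by symbol: a probe belonged to a member when the gene name in the array design equalled it, and 43 of the 44 symbols sought were present among 26276 gene names. Mogs was not found under that name and was not analysed here. Each gene was read at its brightest probe, the one with the highest mean signal over all arrays. Male Wistar rats received for 15 days either a normal-protein diet (NPD), in which protein gave 14% of the energy, or a high-protein diet (HPD), in which it gave 55%, and both diets had the same energy content. Both diets held whole milk protein, and the added protein of the HPD took the place of starch and sucrose, so protein and carbohydrate differed together. Colonocytes were detached with EDTA, and RNA of 7 NPD and 7 HPD rats was hybridised with a single dye, 1 array per rat. The rats that the authors removed as outliers, 1 per diet, were not analysed here.

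Proteins meant for secretion or for membranes carry a hydrophobic signal that the signal recognition particle (SRP) binds while the ribosome is still making them. SRP and its receptor bring the ribosome to the Sec61 translocon, a protein-conducting channel in the ER membrane, and the signal peptidase complex then cuts the signal off. Oligosaccharyltransferase (OST) sits beside the channel and moves a preassembled sugar chain from its lipid carrier, dolichol, to asparagines of the entering protein. That chain is built one sugar at a time by the ALG enzymes, and after transfer glucosidases trim it so that lectin chaperones can bind. In the colon the mucin-secreting goblet cells make heavy use of this route, and absorptive colonocytes use it for transporters, junction proteins and brush-border enzymes.

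Signals were the background-subtracted values of the scanner software, on a log2 scale and relative to the median of their array, so that 1 unit is a doubling and differences are HPD minus NPD. A probe was called when its limma adjusted p, over 30367 probes, was below 0.1. Over the whole array 17 probes were called, 0.056%, and all 17 were higher in the HPD rats. The median difference of all probes was 0.11 rather than 0, and cyclic loess normalization brought it to 0.00067. For probes well above background throughout at least 1 diet the median was 0.048, so each difference can be read against both values. Before centring, the median background-subtracted signal was lower on the HPD arrays (149 ± 22.3 for NPD and 112 ± 13 for HPD, SD, n = 7 each, exact permutation p = 0.00408). The arrays lay on 2 slides, with 4 NPD and 3 HPD on slide 1 and 3 NPD and 4 HPD on slide 2, and 40.1% of all probes differed between the slides at an adjusted p below 0.1 in a fit with diet.

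The probes behind the lowest p-values of the group are shown first, because each value below is the brightness of 1 such designed strand of 60 bases. All are printed 5′ to 3′ in lower case, as the array files give them, with the rn4 position from the same files. The Sec11a and Alg12 probes cover 5748 and 142 bases of the genome, more than their own length, so the genomic match is interrupted within the probe. The Ostc probe lists 3 RefSeq accessions, so a signal from related transcripts cannot be told apart there.
Ostc, chr2:228119396-228119455, strand -: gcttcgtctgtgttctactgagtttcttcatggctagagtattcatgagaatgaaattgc
Ddost, chr5:157089426-157089485, strand +: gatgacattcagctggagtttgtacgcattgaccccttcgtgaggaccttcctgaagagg
Sec11a, chr1:137110278-137116025, strand -: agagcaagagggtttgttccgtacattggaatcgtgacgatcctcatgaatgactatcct
Ssr2, chr2:180706400-180706459, strand +: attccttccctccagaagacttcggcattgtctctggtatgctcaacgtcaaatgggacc
Alg12, chr7:127110228-127110369, strand -: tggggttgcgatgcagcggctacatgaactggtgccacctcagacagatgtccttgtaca
Ganab, chr1:211592946-211593005, strand +: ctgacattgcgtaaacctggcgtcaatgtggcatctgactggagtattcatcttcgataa

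All 43 genes were well above background on all 14 arrays. In these values, fitted with diet alone, none was called between the diets, the lowest limma adjusted p being 0.417. Other values called some members, as given below. The authors listed Ostc among their most differentially expressed genes, lower in the HPD rats. The HPD mean was below the NPD mean for 17 genes and above it for 26. That is 39.5% lower, set against 35.8% of all probes and 43.2% of probes that were well above background throughout at least 1 diet. The median difference of the group was 0.057, below the 0.11 of all probes but near the 0.048 of probes well above background. Below the 0.11 of all probes lay 28 of the 43 genes, but that median includes dim probes. The share of probes well above background that lay below 0.11 was not computed, so this count shows no lean of the group. Differences ran from -0.86 for Ostc to 0.26 for Sec61g. The 95% interval of the difference stayed within 1 log2 unit of 0 for 41 genes and within 0.5 for 22, so these arrays do not show for the other 21 that a difference of 0.5 was absent.

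At the brightest probe and an unadjusted limma p below 0.05, 6 genes were lower in the HPD rats and 0 were higher. The 6 were Ostc and Ddost of OST, Sec11a of signal peptidase, Ssr2 of the translocon, the mannosyltransferase gene Alg12 and the glucosidase gene Ganab. They make 14.0% of the 43, beside 5.55% lower and 5.86% higher among all probes, and 8.47% lower and 5.29% higher among probes well above background. Each of the 6 was also lower in the HPD rats within both slides. Because the 6 were picked on these same arrays, this is not a separate test. No gene of the 43 separated the diets completely, with every HPD rat beyond every NPD rat, which 0.273% of all probes did. In bulk RNA, fewer cells of a type and less RNA per cell cannot be told apart.

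**Figure D1:**
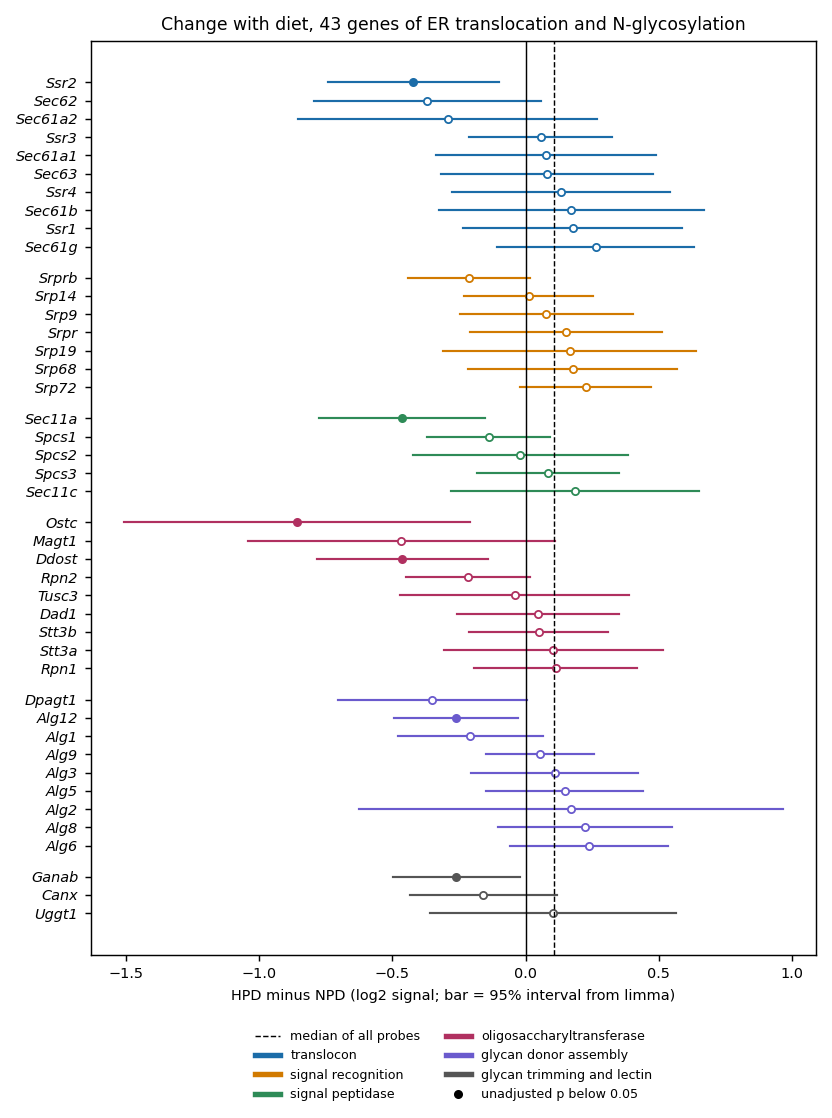
Difference between the diets (HPD minus NPD, log2 signal) for the 43 genes, grouped by role, with points for the estimates, bars for 95% intervals and filled points for an unadjusted p below 0.05. The dashed line is the median of all probes, 0.11, and the filled points, all below 0, are Ssr2, Sec11a, Ostc, Ddost, Alg12 and Ganab.

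The enzyme that attaches the sugar chain showed the widest range. OST consists of a catalytic subunit, STT3A or STT3B, and accessory subunits, and 9 of its genes were among the members. Of these 5 were lower and 4 higher in the HPD rats, with a median of -0.040. Below the all-probe median of 0.11 lay 8 of the 9, among them Stt3a at 0.10, Stt3b at 0.049 and Dad1 at 0.046. Stt3a and Stt3b were above the 0.048 of probes well above background, so the count depends on the median used. Ostc encodes the subunit that joins the STT3A form of OST to the translocon. Its signal in the NPD rats ran from 4.78 over a median of 5.73 to 5.94, and in the HPD rats from 3.75 over a median of 4.87 to 5.90. The difference was -0.86 (SE 0.30, limma adjusted p = 0.417, exact permutation p = 0.0274). In the HPD group, 3 rats lay below every NPD rat, while HPD rat 1, at 5.90, lay among the highest NPD values. The probe also differed between slides, by -0.94 on slide 2 against slide 1, and the diets differed by -0.59 within slide 1 and -0.86 within slide 2.

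Ddost encodes a non-catalytic core subunit present in both forms of OST. Its NPD signals ran from 5.89 over a median of 6.32 to 6.47 and its HPD signals from 5.39 over a median of 5.76 to 6.35. With 4 HPD rats below all NPD rats, the difference was -0.46 (SE 0.15, limma adjusted p = 0.417, exact permutation p = 0.00991). Within slide 1 it was -0.32 and within slide 2 -0.49. Rpn2, ribophorin II, is another core subunit and had the smaller spread among rats. Its signals were NPD 7.08 to 7.38 with a median of 7.21, and HPD 6.61 to 7.20 with a median of 7.01. All 7 HPD rats lay below the NPD mean, 4 of them below every NPD rat, and the difference was -0.22 (SE 0.11, limma adjusted p = 0.45, exact permutation p = 0.0175). Unlike Ostc and Ddost, Rpn2 hardly differed between slides (-0.024).

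The catalytic subunits were near the middle of the group. Stt3a, whose product works on chains still entering the channel, had signals of NPD 2.13 to 3.08 with a median of 2.70, and HPD 2.21 to 3.30 with a median of 2.70. Stt3b, whose product also reaches sites that were missed, had signals of NPD 4.89 to 5.35 with a median of 5.13, and HPD 4.97 to 5.46 with a median of 5.18. The diets overlapped almost fully for both, and the differences were 0.10 (95% interval -0.31 to 0.51) and 0.049 (95% interval -0.21 to 0.31). Tusc3 and Magt1 encode alternative thioredoxin-like subunits of the STT3B form. Tusc3 had signals of NPD 3.91 to 4.76 with a median of 4.45, and HPD 3.73 to 5.04 with a median of 4.32, and a difference of -0.040 (SE 0.20, limma adjusted p = 0.926, exact permutation p = 0.853). Magt1 had signals of NPD 1.36 to 2.78 with a median of 2.30, and HPD 1.35 to 2.91 with a median of 1.62, and a difference of -0.47 (SE 0.27, limma adjusted p = 0.484, exact permutation p = 0.133). For Magt1, 6 of 7 HPD rats lay below the NPD mean while HPD rat 1, at 2.91, was the highest rat of all. The other 2 subunit genes, Rpn1 (ribophorin I) and Dad1, differed by 0.11 and 0.046. A further subunit gene measured outside the group, Krtcap2, differed by 0.18 (SE 0.21, limma adjusted p = 0.673, exact permutation p = 0.418).

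**Figure D2:**
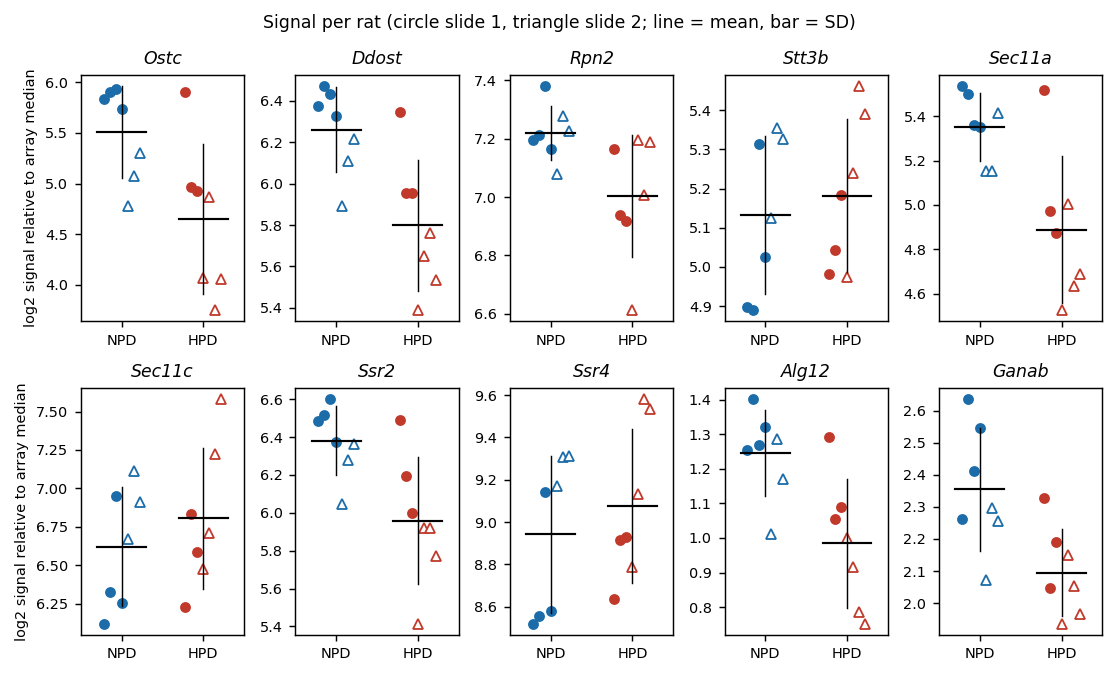
Log2 signal relative to the array median for 10 genes, 1 point per rat, with the mean (line) and SD (bar) of the 7 rats of each diet; filled circles are slide 1 and open triangles slide 2. HPD rat 1 lies at the NPD level for Ostc, Ddost, Sec11a, Ssr2 and Alg12, and the diets overlap for Stt3b, Sec11c and Ssr4.

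The signal peptidase complex consists of a catalytic subunit, SEC11A or SEC11C, and smaller accessory subunits. Of its 5 genes 3 were lower and 2 higher, with a median difference of -0.019. Sec11a signals in NPD rats ran from 5.15 over a median of 5.36 to 5.54 and in HPD rats from 4.53 over a median of 4.87 to 5.52. All HPD rats but HPD rat 1, which had 5.52, lay below every NPD rat, and the difference was -0.46 (SE 0.15, limma adjusted p = 0.417, exact permutation p = 0.00816). Without HPD rat 1 it was -0.57 with a limma adjusted p of 0.0976, the only member called when a single array was left out. Leaving out that rat raised the probes called over the whole array from 17 to 151, 0.497%. It was also the HPD rat with the highest Sec11a signal, so the gain is not particular to this gene. Sec11c, the gene of the alternative catalytic subunit, had signals of NPD 6.12 to 7.11 with a median of 6.67, and HPD 6.23 to 7.58 with a median of 6.71. Its difference was 0.19 (SE 0.22, limma adjusted p = 0.675, exact permutation p = 0.426), with the diets overlapping over most of their range. The accessory subunit genes differed by -0.14 for Spcs1, -0.019 for Spcs2 and 0.085 for Spcs3, and Spcs2 had signals of NPD 4.71 to 5.59 with a median of 5.23, and HPD 4.55 to 5.70 with a median of 5.04.

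In the translocon group, which holds the channel subunits, their partners SEC62 and SEC63 and the translocon-associated (TRAP) proteins encoded by Ssr1 to Ssr4, 3 of 10 genes were lower and 7 higher, with a median difference of 0.078. Ssr2 encodes the beta subunit of TRAP, a complex that helps certain signals open the channel. Its NPD signals ran from 6.05 over a median of 6.37 to 6.60 and its HPD signals from 5.41 over a median of 5.92 to 6.49. In 5 of 7 HPD rats the signal was below every NPD rat, and the difference was -0.42 (SE 0.15, limma adjusted p = 0.417, exact permutation p = 0.0117). The genes of the other TRAP subunits, Ssr1, Ssr3 and Ssr4, differed by 0.18, 0.057 and 0.13, and the contrast with Ssr2 was not tested. Ssr3 signals were NPD 6.16 to 6.61 with a median of 6.33, and HPD 6.09 to 6.81 with a median of 6.37.

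Of the channel itself, Sec61a1 encodes the pore-forming subunit used in most tissues, and its signals were NPD 1.12 to 2.30 with a median of 1.97, and HPD 1.45 to 2.44 with a median of 1.998. The difference was 0.075 (SE 0.19, limma adjusted p = 0.852, exact permutation p = 0.717), and it was -0.083 in the deposited table with slide in the model. Sec61a2, the gene of a second form of the pore, had signals of NPD 0.026 to 1.31 with a median of 0.60, and HPD -0.45 to 1.32 with a median of 0.41, and a difference of -0.29 (SE 0.26, limma adjusted p = 0.59, exact permutation p = 0.315). The small channel subunit genes differed by 0.17 for Sec61b and 0.26 for Sec61g, of which the Sec61g value was the highest of the 43 genes, and neither was past a limma p of 0.05. Sec62 and Sec63 serve chains that arrive after translation, and Sec62 also acts in the turnover of ER membrane. Sec62 signals were NPD 3.54 to 4.45 with a median of 3.84, and HPD 3.21 to 4.48 with a median of 3.42, with 5 HPD rats below all NPD rats and HPD rat 1 above them all at 4.48. The Sec62 difference was -0.37 (SE 0.20, limma adjusted p = 0.466, exact permutation p = 0.0962), while that of Sec63 was 0.081.

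Signal recognition was the role with the fewest genes lower in the HPD rats, 1 of 7, and its median difference was 0.15. The exception was Srprb, the gene of the membrane-anchored beta subunit of the SRP receptor. Srprb signals were NPD 2.91 to 3.14 with a median of 2.98, and HPD 2.50 to 3.11 with a median of 2.79. In 5 HPD rats the signal was below every NPD rat, and the difference was -0.21 (SE 0.11, limma adjusted p = 0.448, exact permutation p = 0.0245). Its partner subunit gene Srpr (Srpra in RefSeq) differed by 0.15. Among the SRP proteins, Srp72, the partner of SRP68 in the larger protein pair of the particle, had signals of NPD 3.32 to 3.83 with a median of 3.56, and HPD 3.63 to 4.01 with a median of 3.81. All 7 HPD rats lay above the NPD mean and 3 above every NPD rat, with a difference of 0.23 (SE 0.12, limma adjusted p = 0.452, exact permutation p = 0.0379). Srp14, part of the domain that slows translation, had signals of NPD 6.33 to 6.72 with a median of 6.60, and HPD 6.33 to 6.85 with a median of 6.52, and a difference of 0.012 (SE 0.11, limma adjusted p = 0.965, exact permutation p = 0.902). Srp9, Srp19 and Srp68 differed by 0.078, 0.17 and 0.18. In the deposited table with slide in the model, 6 of the 7 signal recognition genes were lower, with a median of -0.079.

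Assembly of the sugar donor begins with DPAGT1, which puts the first sugar on dolichol phosphate and is the target of tunicamycin. Of the 9 assembly genes 3 were lower and 6 higher, with a median difference of 0.11, the same as that of all probes. Dpagt1 signals were NPD 3.80 to 4.51 with a median of 4.40, and HPD 3.42 to 4.45 with a median of 3.92. In 6 of 7 HPD rats the signal lay below the NPD mean, and the difference was -0.35 (SE 0.17, limma adjusted p = 0.44, exact permutation p = 0.0594). Alg12 encodes the mannosyltransferase that adds a late mannose on the lumenal side. Alg12 signals in NPD rats ran from 1.01 over a median of 1.27 to 1.40 and in HPD rats from 0.75 over a median of 1.001 to 1.29, with 4 HPD rats below all NPD rats. The difference was -0.26 (SE 0.11, limma adjusted p = 0.418, exact permutation p = 0.0134). Alg9, which acts just before and after ALG12 on the same branch, had signals of NPD 3.98 to 4.28 with a median of 4.05, and HPD 3.95 to 4.31 with a median of 4.20, and a difference of 0.054 (SE 0.096, limma adjusted p = 0.783, exact permutation p = 0.394). The first mannosyltransferase gene, Alg1, differed by -0.21. The remaining genes were higher by 0.17 for Alg2, 0.11 for Alg3, 0.15 for Alg5, 0.24 for Alg6 and 0.22 for Alg8, the last 3 being genes of the glucose-adding steps.

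After transfer, glucosidase II removes glucose from the chain, UGGT1 puts a glucose back on misfolded proteins, and calnexin, encoded by Canx, binds the singly glucosylated form. Ganab, the catalytic subunit gene of glucosidase II, had NPD signals from 2.07 over a median of 2.30 to 2.64 and HPD signals from 1.94 over a median of 2.05 to 2.33. All 7 HPD rats lay below the NPD mean and 4 below every NPD rat, and the difference was -0.26 (SE 0.11, limma adjusted p = 0.425, exact permutation p = 0.0146). Uggt1 signals were NPD -2.12 to -0.89 with a median of -1.503, and HPD -2.004 to -0.54 with a median of -1.43, with a difference of 0.10 (SE 0.22, limma adjusted p = 0.817, exact permutation p = 0.66). This difference was 0.46 within slide 1 and -0.27 within slide 2, and it took the other sign without NPD rat 1 (-0.0027) or HPD rat 1 (-0.037). Canx differed by -0.16 (95% interval -0.44 to 0.12).

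The group holds 4 pairs of genes for alternative subunits, and for each pair the log2 ratio of the probes' signals was taken within every array and compared between diets. Sec11a over Sec11c had a ratio lower by 0.65 in the HPD rats (95% interval -1.36 to 0.059, exact permutation p = 0.0635, lower than the NPD mean in 6 of 7 HPD rats). The Sec11a to Sec11c p was below 0.05 without HPD rat 1 (difference -0.85, exact permutation p = 0.00932) and without NPD rat 6 (difference -0.76, exact permutation p = 0.0361), and the direction was the same within both slides (-0.45 and -0.63). Stt3a over Stt3b differed by 0.055 (95% interval -0.22 to 0.33, exact permutation p = 0.657), a range that leaves out a change of 0.5 either way. Sec61a1 over Sec61a2 differed by 0.37 (95% interval -0.62 to 1.35, exact permutation p = 0.429) and Tusc3 over Magt1 by 0.43 (95% interval -0.58 to 1.43, exact permutation p = 0.367), and these intervals are too wide to tell equal from unequal change. Of the 4 pairs compared, none had a p below 0.05 with all arrays, and over the 4 the lowest Benjamini-Hochberg adjusted value was 0.254.

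Some rats were often the highest or the lowest of their diet. HPD rat 7 had the highest HPD signal for 21 of the 43 genes, and HPD rat 1 the lowest for 21 and the highest for 14. NPD rat 1 was lowest among NPD rats for 19 genes and NPD rat 6 highest for 14. The same counts over all probes were not computed, so these cannot be called particular to the group. HPD rat 7 had the lowest median signal of all arrays (89.7) and the fewest probes well above background (18839). It was on slide 2, as was NPD rat 6, while HPD rat 1 and NPD rat 1 were on slide 1. The SD within a diet had a median of 0.27 over the 43 genes, against 0.36 over all probes and 0.30 over probes well above background. Alg2 (0.76), Ostc (0.61), Magt1 (0.54) and Sec61a2 (0.53) had the largest SDs of the group.

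Slide was the stronger divider of the 2. Between slides 31 of the 43 genes, 72.1%, differed at an adjusted p below 0.1 in the fit with diet, beside 40.1% of all probes, 19 of them higher on slide 2 and 12 lower. Of the 17 genes with a lower HPD mean, 13 were also lower on slide 2, where the HPD arrays were in the majority. All 17 had a lower HPD mean within each slide. They were picked on the same arrays and the matching share of all probes was not computed, so this is a description only. Within slide 1 the HPD mean was lower for 23 genes, within slide 2 for 21, and within both for 18. With slide in the model 20 genes were lower, none was called, and the median was 0.018, while 39% of all probes were lower. What the slides differed in besides position is not given in the sources used here, and the part of slide in each gene's signal beyond these values was not tested.

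**Figure D3:**
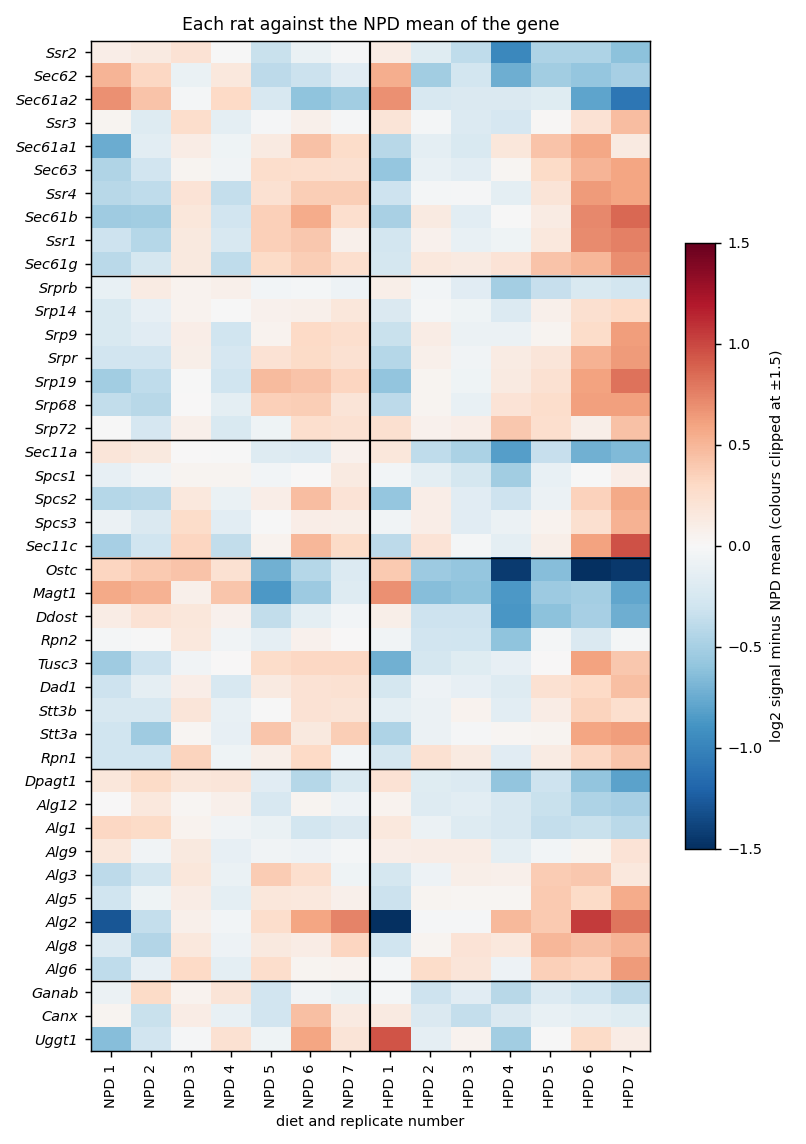
Log2 signal of each rat minus the NPD mean of the gene, for the 43 genes (rows, grouped by role) and 14 rats (columns), red above and blue below. NPD rats 1 to 4 and HPD rats 1 to 3 are slide 1, and most genes are redder on slide 2 while Ostc, Magt1, Ddost, Sec62, Sec11a and Dpagt1 are bluer there.

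The outcome of the test depended on which values were used. In the authors' deposited table of normalized values per gene, with slide in the model, 10 genes were called and all 10 were lower in the HPD rats: Ssr2, Srprb, Spcs1, Sec11a, Rpn2, Ddost, Ostc, Dpagt1, Alg12 and Ganab. That is 23.3% of the 43, beside 6.5% of all genes called lower and 3.98% called higher, and 10.7% lower and 1.6% higher among genes whose brightest probe was well above background. In these values 37 of the 43 genes were lower, with a median difference of -0.093, where 66% of the genes well above background were lower. By role the 10 were 3 of OST, 2 of signal peptidase, 2 of donor assembly and 1 each of the translocon, signal recognition and trimming. Estimates moved from -0.86 to -0.82 for Ostc (adjusted p = 0.0473) and from -0.46 to -0.53 for Sec11a (adjusted p = 0.0495), both by limma. Those of Spcs1 and Rpn2 moved further, from -0.14 to -0.28 for Spcs1 (adjusted p = 0.0803) and from -0.22 to -0.32 for Rpn2 (adjusted p = 0.0782), again by limma. Genes that were not called could change sign, as Srpr did from 0.15 to -0.079.

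The same 10 genes were called, all lower, when the mean pixel signal was corrected for background with normexp and slide was left out. Their limma adjusted p then ran from 0.0867 for Ssr2 to 0.0935 for Dpagt1, just under the threshold of 0.1. Both settings used the same arrays, so the shared list is not a separate test. Normexp called 6.15% of all probes lower and 10.8% higher, and 10.2% of the probes well above background lower. In the deposited table without slide in the model none was called. Under cyclic loess 22 of the 43 were lower, 51.2%, beside 49.9% of all probes, and the median was -0.0012. The count of lower genes depended on the processing, from 15 to 37 over the settings tried other than leaving out arrays, and the median difference ran from -0.10 to 0.12, so neither the count nor the sign of the median was stable. Gene by gene, 15 members had a negative difference in all 31 settings that were fitted for every gene, arrays left out included: Sec61a2, Sec62, Ssr2, Srprb, Spcs1, Sec11a, Rpn2, Ddost, Ostc, Magt1, Dpagt1, Alg1, Alg12, Ganab and Canx. Sec61g, Srp72 and Alg8 had a positive difference in all 31, and the other 25 took both signs. These settings were not separate tests. The dim-probe filter, replicate number as a block and a trend in eBayes each left 17 members lower and the median at 0.057. Those are the values of the processed signal with diet alone, because these settings cannot change a member's estimate. They are among the 31 but add nothing to the sign counts. The fits with arrays left out reused the remaining arrays. The share of all probes that kept the same sign throughout is not given here, so these counts do not measure robustness.

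**Figure D4:**
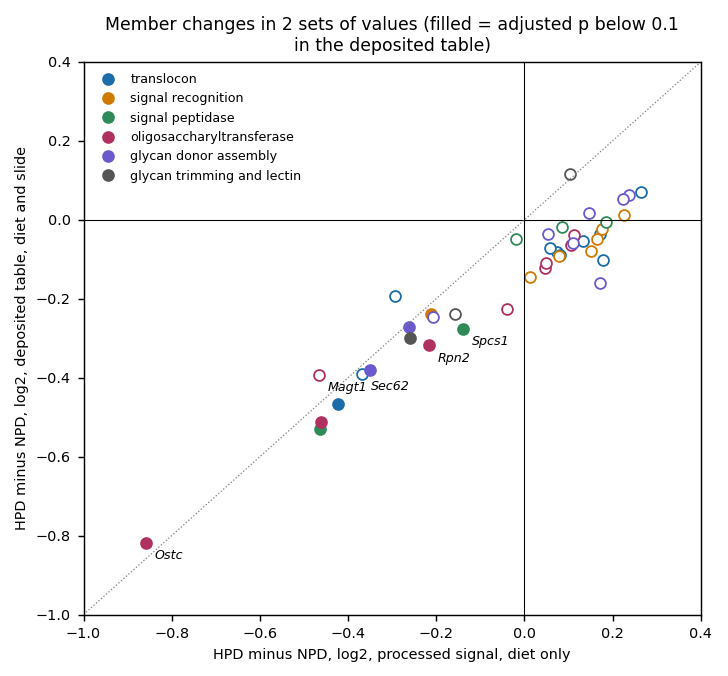
Difference between the diets for each of the 43 genes in the processed scanner signal with diet alone (x axis) and in the deposited table with diet and slide (y axis), both HPD minus NPD in log2, coloured by role, with filled points for an adjusted p below 0.1 on the y axis. The 10 filled points all lie below 0 on both axes, and Ostc lies lowest at -0.86 and -0.82.

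Several members had more than 1 probe, and these did not always give the same sign. The 3 probes of Srp72 differed by 0.23, 0.33 and -0.26 between the diets, and the 2 of Ssr1 by 0.18 and -0.22. Alg2 gave 0.17 at its brightest probe and -0.80 (limma adjusted p = 0.417) at the other, and Alg6 gave 0.24 and -0.40. At the dimmer probes of Alg2 and Alg6, 6 and 5 of the 7 HPD arrays were well above background. Spcs2 gave -0.019 and 0.35, Spcs3 0.085 and 0.50, Srp14 0.012 and -0.10, and Srpr 0.15 and -0.067. At the dimmer Spcs3 probe the unadjusted limma p was 0.0483 (adjusted p = 0.437). The counts at an unadjusted p below 0.05 thus hold for the brightest probes only. For Sec61g and Srp9 both probes gave the same sign, at 0.26 and 0.24 and at 0.078 and 0.077.

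A wider list of 52 further genes of targeting, OST (Krtcap2), donor supply, lumenal chaperones of the translocon, chain trimming, lectins and ER disposal was measured beside the group, and none of it was called. Of these 22 were lower and 30 higher in the HPD rats, with a median of 0.073. That is 42.3% lower, beside 43.2% of probes well above background throughout at least 1 diet. At an unadjusted limma p below 0.05, 5 were lower and 1 higher. The 5 make 9.62%, near the 8.47% lower among probes well above background, of which 5.29% were higher. Snd1 was on the list for a name it shares with a yeast targeting factor, while in mammals the symbol is that of a tudor-domain nuclease, and it separated the diets completely, with NPD signals from 3.18 over a median of 3.27 to 3.62 and HPD signals from 2.37 over a median of 2.86 to 3.17. Its difference was -0.50 (SE 0.13, limma adjusted p = 0.417, exact permutation p = 0.000583), where the smallest p the permutations allow is 0.000583. Among all probes 0.273% separated the diets completely. Prkcsh, the partner of Ganab in glucosidase II, differed by -0.29 (SE 0.12, limma adjusted p = 0.418, exact permutation p = 0.0146). The ER co-chaperone gene Dnajc3 differed by -0.29 (SE 0.12, limma adjusted p = 0.421, exact permutation p = 0.0216). For Gmppb, which supplies GDP-mannose, the difference was -0.26 (SE 0.11, limma adjusted p = 0.425, exact permutation p = 0.0221). Edem3, a mannosidase gene of ER disposal, was the 1 with the opposite sign, at 0.51 (SE 0.23, limma adjusted p = 0.428, exact permutation p = 0.0565). In the deposited table with slide in the model 11 of the 52, 21.2%, were called lower and 1, Edem3, higher. Among genes whose brightest probe was well above background, 10.7% were called lower and 1.6% higher there.

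The cell make-up of the samples was read from marker genes. All 13 colonocyte markers, among them Epcam, Cdh1, Krt20 and Car1, were well above background on all arrays, and their mean signal was 8.54 ± 0.12 in NPD and 8.61 ± 0.19 in HPD rats (SD, n = 7 each). Goblet cell markers, 8 of 8 well above background, had mean signals of 8.47 to 9.12 in NPD and 8.50 to 9.77 in HPD rats. Of the 8 goblet genes 5 were lower in the HPD rats, Agr2 (-0.63) and Clca1 (-0.56) among them, Muc2 differed by 0.013 and Spink4 by 1.82, and none was called in the processed signal with diet alone. In both settings that called 10 members, markers were called too: Agr2 (limma adjusted p = 0.058 in the deposited table with slide and 0.0897 with normexp), Krt19 (0.0582 and 0.0893) and Epcam (0.0998 and 0.0945) lower in the HPD rats, and Spink4 (0.0486 and 0.0838) and Pdgfra (0.0891 and 0.0893) higher. Normexp also called Clca1 lower and 4 stromal or muscle genes, Col1a1, Col3a1, Dcn and Tagln, higher. Of these, Col3a1 and Tagln were each well above background on 1 HPD array and on no NPD array. In the processed signal 4 of the 10 stromal, muscle and endothelial genes were lower and 6 higher, Des (-0.56) and Myh11 (-0.48) being among the lower. HPD rat 1, which stood apart for Ostc, Magt1, Sec62 and Sec11a, had the highest goblet signal of all, 9.77, and the lowest enteroendocrine signal, 5.98. Of the immune markers 4 of 9 and of the stromal, muscle and endothelial markers 6 of 10 were well above background on all arrays, with mean signals from -1.79 to 0.63 and from -1.14 to -0.60. The 3 red blood cell genes had mean signals of 0.83 to 2.31 in NPD and -0.23 to 3.52 in HPD rats. Mzb1 of plasma cells and Dcn and Pdgfra of stroma were not well above background on any array. No marker list mean differed between diets by exact permutation test, the lowest p being 0.419. Such a mean can hide opposite changes, as in the goblet list, where Spink4 was higher and the median difference was -0.28. The immune and stromal means also include probes not well above background, so these tests cannot show an equal cell make-up. The part of goblet cells in the members' signals was not tested.

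Promoters from RefSeq (GRCr8) were searched on both strands for 3 elements of the ER stress response, since the members share a secretory role. They were held for 40 of the 43 genes, all but Sec61a1, Sec61a2 and Tusc3. The ER stress response element, CCAAT and CCACG with 9 bases between them, was in 1 of the 40 promoters, 2.5%, and in 0.07% of 33469 promoters in all. That promoter was Canx, at chr10:35158069-35158087 on the strand of the gene, with the 2 ends of the element in capitals: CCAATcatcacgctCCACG. A second form of the element was in none of the 40 and in 0.05% of all promoters, and the unfolded protein response element TGACGTGG was in 1, Srp19, and in 0.59% of all. A match is only a description of these letters.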

How the data were processed

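RNA of colonocytes from 7 NPD and 7 HPD rats was measured on 1-colour Agilent arrays, with groups and replicate numbers from the sample titles. Per array, the authors deposited scanner output made with Agilent Feature Extraction 10.7.3.1 per the submitters' processing notes, whose intensity values are on a linear scale, as well as a gene-level table of their normalized log2 values. The number of columns of other samples was 0. Members, roles and lists were chosen with earlier results of these data known.

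Here the background-subtracted signal was taken without control and outlier spots and log2-transformed, spots of a probe were averaged and each array was centred on its median over 30367 probes. A linear model with diet alone, as the methods state, was fitted by lmFit and eBayes of limma 3.58.1 (R 4.3.3) with Benjamini-Hochberg adjustment and a threshold of 0.1. No filter on dim probes was used. Single genes, pairs and array measures were tested by two-sided exact permutation of the arrays over 3432 splits, in which single genes carry unadjusted p-values. The R package data.table (1.17.8), Python 3.11.15, pandas 2.3.3 and matplotlib 3.10.9 were also used. Replicates were separate rats, and their number limits the precision.

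Full values are given by rule for up to 12 members with the smallest p, the members with the largest and smallest difference of each of the 6 roles, the 4 pairs, and up to 5 other genes of the pathway. Brightest probes were named by RefSeq accession for 39 members and by symbol for all 43. Alternatives were the signal column, normexp (offset 50), centring, quantile and cyclic loess normalization, dim-probe filter, slide and replicate number as blocks, a trend in eBayes, the deposited table, other probes, a threshold of 0.05 and leaving out each array. Centring over spots, and cyclic loess or normexp with slide, were added after seeing the data. The deposited table's exact centring is not given in the sources used here. The fit was tested on simulated data.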

Additional observations from a re-analysis of the deposited data

Results flagged for a closer look

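For each diet of 7 rats, the highest and the lowest rat were compared with the rest by the gap to the nearest other rat relative to the whole range. Of 64 groups examined, over the members and other pathway genes named and the 4 pairs, 5 passed the limit, and chance flags about 1 in 20. HPD rat 1 stood out in 4 of the 5. It was highest among the HPD rats for Sec62 at 4.48, where the next was 3.66, and for Magt1 at 2.91, where the next was 1.71. For Tusc3 minus Magt1 it was lowest, at 0.82, with 2.60 next. For Gmppb it was highest of the HPD rats at 3.68, with 3.29 next, and NPD rat 1 was lowest of the NPD rats at 3.28, with 3.50 next. Both rats were on slide 1.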

How the results depend on the processing

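No member was called in the settings tried other than normexp (10 called), the authors' table with slide as a block (10), normexp with slide as a block (12, the further 2 being Sec62 and Alg1) and leaving out HPD rat 1 (1). In the same order these settings called, in either direction, 16.9%, 10.5%, 27.9% and 0.497% of all probes or genes. Over the arrays left out in turn, 0 to 1 members and 9 to 151 probes were called, 151 without HPD rat 1, 28 without HPD rat 6, 9 without NPD rats 4 or 6, 10 without HPD rats 4 or 5 and 11 without NPD rat 2. Probes called were 17 and became 5142 with normexp, 8479 with normexp and slide, 2767 in the deposited table with slide, 40 under cyclic loess with slide and 27 with slide as a block. Members lower in the HPD rats numbered 17 and became 30 with normexp, 32 in the deposited table, and 37 both in that table with slide and with normexp and slide. Over all probes or genes the shares lower were 35.8%, then 37.3% with normexp, 41.4% in the deposited table and 43.6% there with slide. With normexp and slide the share was 41.5%. Among genes whose brightest probe was well above background, 66% were lower in the deposited table with slide. The causes were not tested.

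With replicate number as a block 8 probes and 0 members were called. Arrays of the same number correlated at -0.090 to 0.39 in their deviations, 6 of 7 pairs above 0.1, and 5 of 14 arrays correlated best with their own number, so the numbers were not taken to pair rats.

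Some members whose difference was small took the other sign under other settings, none of these differences being called. The values were -0.049 for Ssr3, -0.094 for Srp14, -0.047 for Stt3b and -0.048 for Alg9 with the mean pixel signal, and -0.049 for Ssr3, -0.098 for Srp14, -0.056 for Stt3b and -0.044 for Alg9 with the median. With normexp they were -0.022 for Sec61a1, -0.091 for Ssr3, -0.14 for Srp14, -0.016 for Stt3a, -0.088 for Stt3b and -0.086 for Alg9, and with normexp and slide -0.084 for Sec61a1, -0.090 for Ssr3, -0.15 for Srp14, -0.078 for Stt3a, -0.12 for Stt3b, -0.056 for Alg9 and -0.019 for Sec11c. The authors' table gave -0.034 for Sec61a1, -0.090 for Ssr3, -0.15 for Srp14, -0.020 for Stt3a, -0.097 for Stt3b, -0.086 for Alg9 and 0.020 for Spcs2, and with slide as a block -0.083 for Sec61a1, -0.072 for Ssr3, -0.15 for Srp14, -0.065 for Stt3a, -0.11 for Stt3b, -0.037 for Alg9 and -0.0047 for Sec11c. With slide as a block in the processed signal the values were -0.0028 for Sec61a1 and -0.016 for Srp14. Quantile normalization gave -0.036 for Ssr3 and -0.083 for Srp14, cyclic loess -0.0068 for Ssr3 and -0.057 for Srp14, and cyclic loess with slide -0.045 for Srp14. Centring over spots gave 0.046 for Spcs2 and 0.025 for Tusc3. The mean over all probes gave -0.045 for Srp14 and 0.16 for Spcs2, and the probe with the smallest p -0.10 for Srp14 and 0.35 for Spcs2. Over the arrays left out in turn the values ran from -0.049 to 0.16 for Sec61a1, -0.12 to 0.074 for Spcs2, -0.036 to 0.050 for Srp14, -0.0094 to 0.11 for Ssr3, -0.15 to 0.073 for Tusc3 and -0.037 to 0.21 for Uggt1. The adjusted p of Ostc ran from 0.0308 to 0.406 and that of Sec11a from 0.0288 to 0.406 over the settings other than arrays left out.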
